A study of Mus musculus with 7 samples.

Results

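Tph1, the gene of tryptophan hydroxylase 1, was measured in 2 populations sorted from mouse mammary gland, side population (SP) cells and the remaining non-side population (NSP) cells, and in a universal mouse reference RNA. The gene was found by name within a list selected on measured dChip values: among the 1632 probe sets the authors listed as differing between SP and NSP cells, the 1 probe set that carries the gene number or symbol of Tph1 (1419524_at) was taken, so that Tph1 is 1 of 1311 genes named in the tables used here. Both the list and the interest in the gene rest on the contrast of SP with NSP cells on these same arrays, so its difference between them is given as a description, with no test. SP cells are those that exclude a Hoechst dye and fall in a side region of blue against red fluorescence, and NSP cells are those of the main region. 3 arrays carry SP cells, 3 carry NSP cells of the same numbered sorts and 1 carries the reference RNA, a commercial pool of RNA from mouse cell lines. The RNA of the sorted cells was amplified in vitro before hybridisation to Affymetrix mouse arrays, and the strain, age, sex and stage of the donors, and whether a sort pooled several animals, are not stated in the labels. No label ties a sort to its own animals, so p-values reflect how far these arrays differ among themselves, a spread that may be technical. The median signal of an array was 79.3 at the lowest and 97.2 at the highest.

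Tryptophan hydroxylase adds a hydroxyl group to the amino acid tryptophan, the first and rate-limiting step of serotonin synthesis, and it needs tetrahydrobiopterin as a cofactor. TPH1 is the form found outside neurons, in enterochromaffin cells of the gut, mast cells and the pineal gland, while TPH2 serves neurons. In the mammary gland, epithelial cells make serotonin with TPH1, its level is known to rise with prolactin, and the serotonin acts back on the epithelium to limit milk secretion and to loosen tight junctions.

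Mouse Tph1 lies on chromosome 7, on the minus strand, and RefSeq on GRCm38.p6 gives it 2 starts, whose windows lie 5160 bases apart. The window of each start, from 250 bases before to 50 bases after it, is shown because 1 probe set cannot tell which start the measured transcripts used. Capitals mark CCAAT and TATAA, searched as exact letters on both strands, and the motifs do not overlap in these windows. The upstream window, at chr7:46672488-46672787 (minus strand), holds neither motif.
Tph1 upstream start: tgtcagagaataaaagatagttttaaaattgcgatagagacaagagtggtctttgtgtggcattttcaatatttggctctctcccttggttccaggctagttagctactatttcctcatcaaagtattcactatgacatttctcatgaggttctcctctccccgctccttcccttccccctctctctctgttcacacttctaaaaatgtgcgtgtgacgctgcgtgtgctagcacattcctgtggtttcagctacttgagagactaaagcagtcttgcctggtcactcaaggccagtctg
Tph1 downstream start: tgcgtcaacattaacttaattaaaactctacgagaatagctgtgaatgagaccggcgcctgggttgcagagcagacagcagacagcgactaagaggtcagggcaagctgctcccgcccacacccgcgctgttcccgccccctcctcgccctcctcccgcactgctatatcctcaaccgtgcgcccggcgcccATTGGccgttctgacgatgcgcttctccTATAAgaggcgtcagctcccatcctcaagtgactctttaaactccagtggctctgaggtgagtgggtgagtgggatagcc
The downstream window, at chr7:46667328-46667627 (minus strand), holds 1 CCAAT on the other strand, whose first printed base is 58 bases before the start, and 1 TATAA on the gene's strand that begins 30 bases before it. Of all 32851 RefSeq windows of 300 bases, 37.4% hold CCAAT and 24.9% hold TATAA, so each is common, and a match describes the letters only.

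Tph1 signal was low in SP cells, higher in NSP cells and lowest in the reference RNA. The deposited signal, a linear intensity, was 65.5, 63.2 and 66.3 on SP arrays 1, 2 and 3. On NSP arrays 1, 2 and 3 it was 322, 332 and 306. The reference array had 25.5. The groups did not overlap: the lowest NSP signal was 4.62 times the highest SP signal. Of the 38115 probe sets tested across the arrays, 7.57% had all SP arrays below all NSP arrays, and 1.56% had the reference array below all SP arrays as well. The group means were 65 ± 1.61 in SP cells and 320 ± 13 in NSP cells (SD, n = 3 each).

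**Figure D1:**
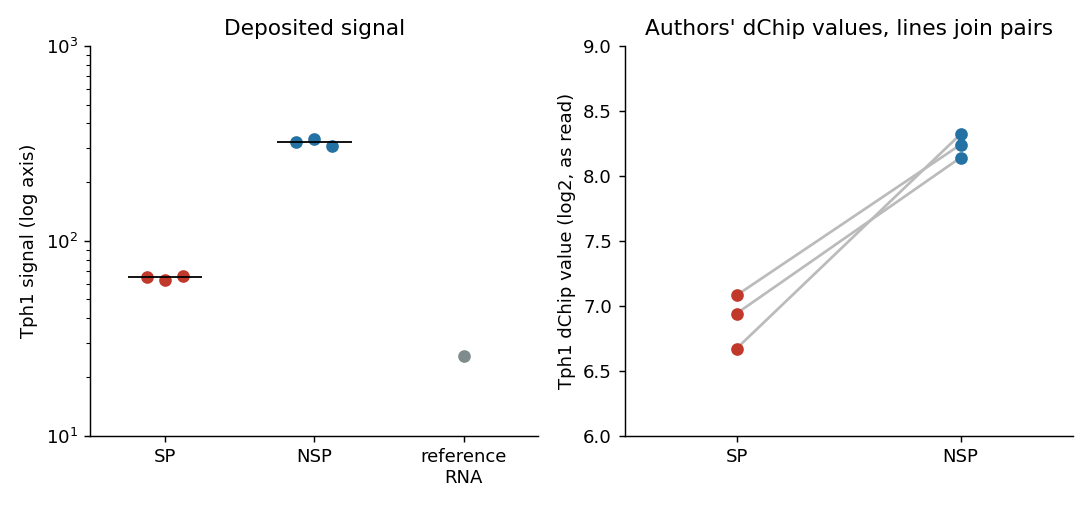
Tph1 in each array. Left, deposited signal on a log axis in 3 SP arrays, 3 NSP arrays and 1 reference RNA array, with bars at the SP and NSP means: SP arrays lie at 63.2 to 66.3, NSP arrays at 306 to 332 and the reference array at 25.5. Right, the authors' dChip values (read as log2), with lines joining arrays of the same sort number: SP values lie at 6.67 to 7.08 and NSP values at 8.14 to 8.32.

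On the log2 scale the difference, SP minus NSP, was -2.30 ± 0.16 (moderated standard error of limma, 3 arrays each), a signal 4.92-fold higher in NSP cells. Within the pairs of the same sort number the difference was -2.30, -2.39 and -2.21, with an SD of 0.0927, so every pair went the same way by nearly the same amount. Across all tested probe sets the median difference was -0.008, and 99 (0.26%) had a difference at least as low as that of Tph1, 50 of which had all 6 sorted-cell arrays above the floor set for low signals (17). In limma's fit over all probe sets, 6 (0.0157%) passed an adjusted p of 0.05, 5 of them lower in SP cells (0.0131%) and 1 higher (0.00262%). No limma p is given for Tph1, which was singled out for this difference.

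Replicate arrays gave almost the same Tph1 signal. The coefficient of variation was 2.48% in SP cells and 4.06% in NSP cells. The within-group SD was 0.049 on the log2 scale, against a median of 0.39 over the 10135 probe sets whose mean log2 signal lay within 1 of that of Tph1. Of these 10135 probe sets, 6 (0.0592%), Tph1 included, had an SD as small. Among the 61 of them with an SP minus NSP difference of -2 or lower, the median SD was 0.78 and the smallest SD of any other was 0.2. The spread comes from the arrays on which the gene was chosen, so this closeness is a description too.

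**Figure D2:**
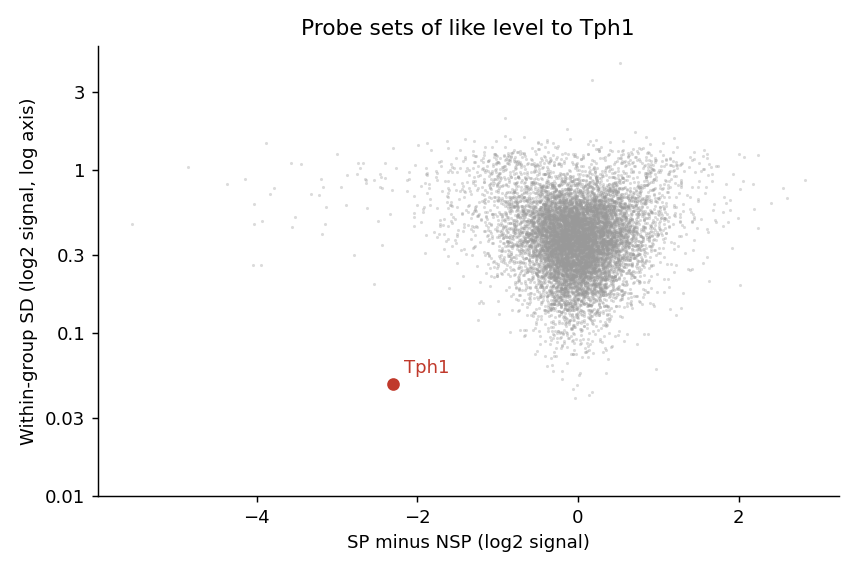
Each grey point is 1 of the 10135 probe sets whose mean log2 signal lies within 1 of that of Tph1. The horizontal axis is the SP minus NSP difference in log2 signal and the vertical axis, a log axis, is the SD within groups (3 arrays each). Tph1, in red, lies at -2.30 and 0.049, below the other probe sets of like difference.

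A second measure from the same arrays gave the same direction and a smaller difference with more spread. In the authors' deposited table, Tph1 had dChip values of 6.94, 6.67 and 7.08 on SP arrays 1, 2 and 3, and 8.14, 8.32 and 8.24 on NSP arrays 1, 2 and 3 (model-based expression, on a log scale read as log2). The difference of means in the authors' deposited table was -1.33, which is 2.51-fold if the base is 2 and 3.78-fold if the logs are natural. From the authors' deposited table the differences within pairs came to -1.2, -1.65 and -1.16. The SP values had an SD of 0.208 and the NSP values one of 0.0902, so the closeness of the SP signals is not seen in the dChip values. SP array 2 was the lowest and SP array 3 the highest SP array by both measures. Tph1 was called present on all 6 arrays, in 100% of each group, in the authors' deposited table. Among 6 other listed probe sets with an SP signal and a difference within 0.5 of those of Tph1, the dChip difference in the authors' deposited table had a median of -1.64 and ran between -2.72 and -0.50, so dChip differences of like probe sets varied widely around the value of Tph1.

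Its difference had rank 73 of the 881 probe sets listed as lower in SP cells in the authors' deposited table, whose median was -0.35. With a paired p-value of 0.0132 in the authors' deposited table, Tph1 stood on the lists with a minimum difference of 0.185, 0.4 and 0.7 and a paired p of at most 0.05, and not on the shortest list, which asked for 0.01. The names of these 3 lists call the minimum differences 1.2-, 1.5- and 2-fold, which would be natural logs, while the range of the values fits base 2, and the headers do not state the base. These values come from the contrast that chose the gene and are description only.

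Set beside the reference RNA, Tph1 was higher in both sorted populations, by 1.35 in SP cells and by 3.65 in NSP cells on the log2 scale (2.55-fold and 12.5-fold). SP arrays differed from the reference by 1.31 to 1.38 and NSP arrays by 3.58 to 3.7. The SP difference rests on the low reference signal, and with the floor raised to the 40th percentile it was 0.199, and that of NSP cells 2.50. With 1 reference array there is no test, and 20% of the probe sets tested had all 6 sorted-cell arrays above it. The median difference of all probe sets was -0.025 for SP and -0.012 for NSP cells, on signals whose array medians were already alike as deposited. In rank within its own array, Tph1 exceeded 41.4% to 44.8% of probe sets in SP cells, 71.5% to 72.9% in NSP cells and 25.2% in the reference RNA.

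Of the pathway around Tph1, few genes could be read. Of 109 other genes listed for serotonin synthesis, cofactor supply, tryptophan use, transport, breakdown, receptors and signals, 9 carry a name in the tables used here. All 9 were named because the authors had listed them as differing on these arrays, so their directions are not independent evidence. In SP cells 4 of them had lower and 5 higher signals, with a median difference of 0.32 against -0.008 over all probe sets. None of the 9 passed limma's adjusted p of 0.05 (background 0.0157%), and 3 had an unadjusted p under 0.05, as 8.72% of all probe sets did. When limma was given both a block for sort number and a variance trend, 2 passed (Tgm2 and Lif), where 2.47% of all probe sets did. With the block alone none did, as for all probe sets (0%), and with the trend alone the background was 1%. SP and NSP arrays did not overlap for 4 of the 9 (Qdpr, Tgm2, Plcb1 and Lif), against 14.3% of all probe sets (7.57% with SP lower and 6.74% with SP higher). The other synthesis genes, Tph2 and Ddc, and all genes listed for tryptophan uptake, competing use of tryptophan, serotonin transport and serotonin receptors carry no name in these tables and are not analysed here.

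Of the hydroxylase helpers, Ywhaq encodes a 14-3-3 protein, of a family known to activate tyrosine and tryptophan hydroxylases. Its signal was 2334, 2650 and 3019 on the SP arrays and 2406, 3656 and 3672 on the NSP arrays, with 3299 in the reference RNA. The groups overlapped, though each pair had the lower value on its SP array, and SP minus NSP was -0.26 ± 0.25 (limma adjusted p = 0.856). Qdpr encodes dihydropteridine reductase, which regenerates tetrahydrobiopterin after each hydroxylation. Qdpr signal was 391.5, 445 and 413 in SP cells and 481, 547 and 600 in NSP cells, with 715 in the reference RNA. Every pair had the lower value on its SP array, and the difference was -0.38 ± 0.18 (limma adjusted p = 0.652). The order of the groups differed from that of Tph1, since the reference RNA was highest.

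Tgm2 encodes tissue transglutaminase, which can link serotonin to proteins. Tgm2 signal was 1329, 1320 and 1989 in SP cells and 2324, 2749 and 2672 in NSP cells, with 580 in the reference RNA. Of the pathway genes described here it alone had the order of Tph1, NSP above SP above reference, with no overlap. The difference of Tgm2 was -0.76 ± 0.23 (limma adjusted p = 0.39, and 0.00717 with block and trend). Lif encodes leukaemia inhibitory factor, a cytokine that acts through Stat3 when the gland regresses after weaning. Lif signal was 1537, 1869 and 1314 in SP cells and 960, 1031 and 901 in NSP cells, with 193 in the reference RNA. Lif differed by 0.69 ± 0.21, higher in SP cells in all 3 pairs (limma adjusted p = 0.374, and 0.00761 with block and trend).

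The remaining 4 genes serve signalling downstream of many receptors, those for serotonin among them. Plcb1, a phospholipase C that acts after Gq, had 558, 478 and 515 in SP cells and 219, 266 and 381 in NSP cells, with a difference of 0.88 ± 0.25 (limma adjusted p = 0.365). Gnai1, an inhibitory G protein subunit, differed by 0.32 ± 0.23, and Prkar2b, a regulatory subunit of protein kinase A, by 0.43 ± 0.27. Adcy9, an adenylyl cyclase, differed by -0.18 ± 0.23. The groups overlapped for Gnai1, Prkar2b and Adcy9, and limma's adjusted p was 0.793, 0.76 and 0.904. Within pairs, Gnai1 and Prkar2b were higher in SP cells each time, while Adcy9 was lower in 2 pairs.

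**Figure D3:**
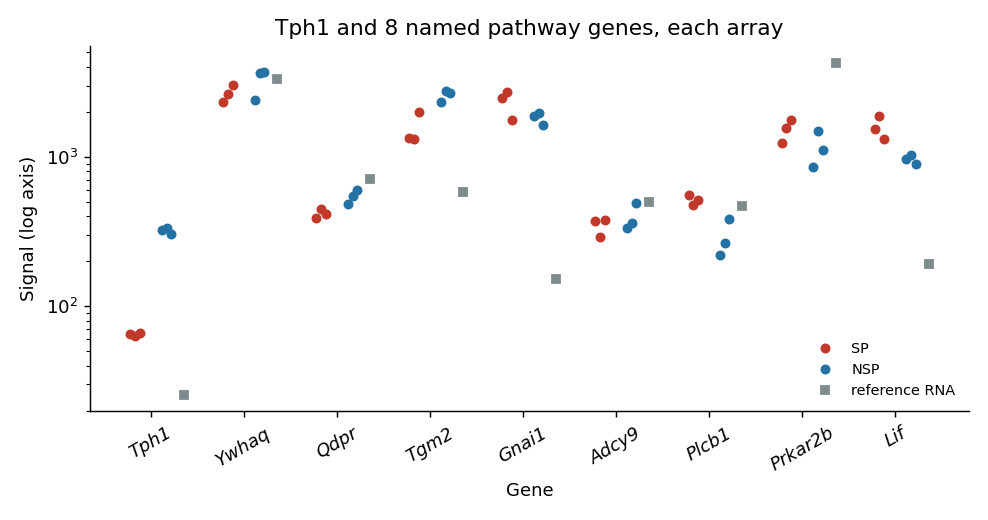
Deposited signal, on a log axis, of Tph1 and 8 of the 9 named pathway genes in 3 SP arrays (red), 3 NSP arrays (blue) and the reference RNA array (grey square). SP and NSP points are apart for Tph1, Qdpr, Tgm2, Plcb1 and Lif; no pathway gene shown differs by as much as Tph1, the largest being Plcb1 at 0.88 on the log2 scale.

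The genes most like Tph1 were sought by Pearson's r of log2 signal over the 7 arrays, which share the split into 2 sorted populations and 1 reference RNA. Of 1310 other named genes 23 (1.76%) had an r of at least 0.95, against 0.168% of all probe sets tested. The named genes had all been listed for a difference between SP and NSP cells. Among the 8 highest were Rbm24 (0.984), Itgb6 (0.98), Lama3 (0.978), Dcdc2a (0.972), Chil3 (0.972), Arg1 (0.97) and Clic4 (0.97). These 7 had lower signals in SP cells in all 3 pairs and their lowest signal in the reference RNA.

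Itgb6, an integrin subunit of epithelial cells, had 67.1, 100 and 111 in SP cells and 550, 1161 and 817 in NSP cells, with 32.5 in the reference RNA. Lama3, the alpha chain of the epithelial laminin-332, had 177, 257 and 168 in SP cells and 1166, 983 and 708 in NSP cells, with 50.1 in the reference RNA. Both differed by amounts near or above that of Tph1, at -3.15 ± 0.35 for Itgb6 and -2.24 ± 0.28 for Lama3. Rbm24, an RNA-binding protein known from heart and skeletal muscle, differed by -1.6 ± 0.2, and Dcdc2a, a microtubule-binding protein of the doublecortin family, by -2.37 ± 0.32.

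Chil3 and Arg1, a chitinase-like protein and an arginase made by activated macrophages, showed the same order with far wider spans. Chil3 had 111, 116 and 30 in SP cells and 2012, 2504 and 1612 in NSP cells, and Arg1 had 110, 91 and 127 in SP cells and 2992, 1684 and 632 in NSP cells. Their reference signals, 2.7 and 2.4, lay under the floor. Clic4, an intracellular chloride channel protein, correlated as well while differing by only -0.43 ± 0.16, since r measures shape and not size. At the other end, Mastl (-0.986), Lyar (-0.981), Cd34 (-0.981) and Prc1 (-0.975) ran opposite to Tph1, higher in SP cells and highest in the reference RNA. Their SP minus NSP differences were 1.28 ± 0.19 for Mastl, 0.22 ± 0.16 for Lyar, 1.09 ± 0.19 for Cd34 and 0.95 ± 0.19 for Prc1. On the dChip values Mastl differed by only 0.32. Mastl is a kinase of mitosis, Prc1 a microtubule bundler of cell division, Lyar a nucleolar protein and Cd34 a surface protein of endothelial and blood stem cells.

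**Figure D4:**
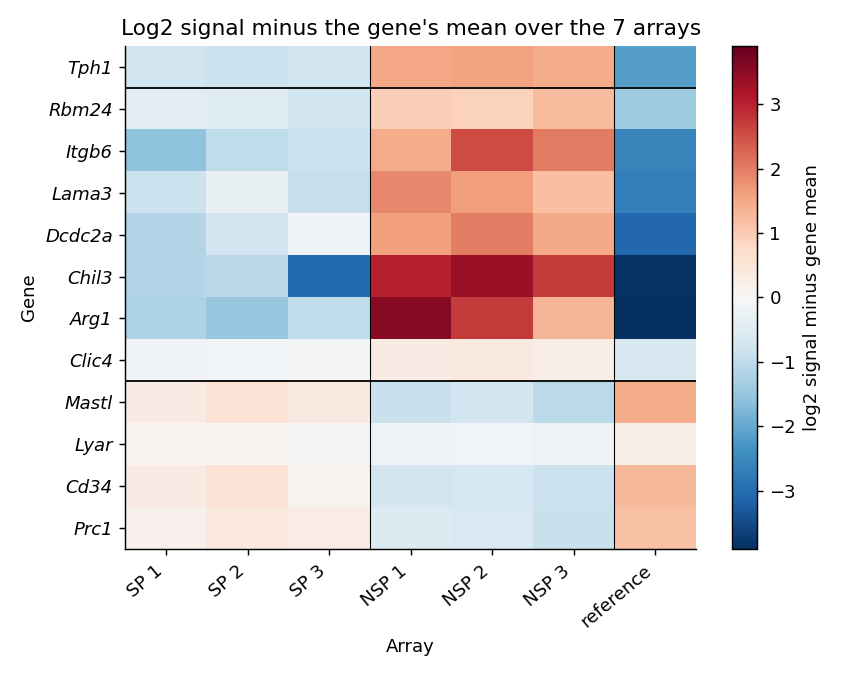
Colour gives log2 signal minus the gene's own mean over the 7 arrays, with low signals set to the floor. Columns are 3 SP, 3 NSP and 1 reference RNA array; rows are Tph1, 7 of the 8 named genes of highest r and the 4 of lowest r. Tph1 and the 7 genes under it are high on NSP arrays and lowest on the reference array, and the last 4 are the opposite.

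Signals of markers of several cell types were also lower or higher in SP cells than in NSP cells. In these sorted bulk samples, fewer cells that express Tph1 and less Tph1 RNA per cell cannot be told apart. All 5 named basal and myoepithelial markers of 10 listed had lower signals in SP cells, with a median of -1.61, and their summed signal was 1222 to 1375 in SP cells, 3268 to 4372 in NSP cells and 387 in the reference RNA. Krt14, a basal keratin, had 415, 594 and 556 in SP cells and 1571, 1478 and 1300 in NSP cells, Trp63 differed by -2.42 ± 0.32 and Krt5 by -1.62 ± 0.25. All 7 named markers of the 18 on the luminal list were lower too, with a median of -1.51. Their summed signal was 10970 to 19930 in SP cells, 34320 to 42300 in NSP cells and 10776 in the reference RNA. This list holds genes of epithelial cells in general, such as Cdh1 and Epcam, so it does not mark luminal cells alone. Krt8, a luminal keratin, had 5186, 5928 and 9185 in SP cells and 15172, 17529 and 14865 in NSP cells, Cdh1 differed by -1.55 ± 0.27 and Epcam by -1.48 ± 0.34. The luminal sum in the reference RNA was uneven: Krt8 had 6312 there and Epcam 2462, but Cdh1 had 70.7. Of the 33 named markers of all cell types, all of them taken from the authors' list of differing probe sets, none passed limma's threshold (adjusted p of 0.0552 to 0.998, background 0.0157%), and 29 had an unadjusted p under 0.05 (background 8.72%). With the variance trend 21 passed (background 1%), with block and trend 26 (background 2.47%) and with the block alone none (background 0%). The part of these markers in the Tph1 difference was not tested.

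Of the leukocyte and macrophage list, 5 of 10 were named and 4 had lower signals in SP cells. Lcp1, the other, differed by 0.01 ± 0.6 in signal and by -0.57 on the dChip values. The sums over all 5 were 502 to 760 in SP cells, 3446 to 11170 in NSP cells and 31298 in the reference RNA. Ctss, a lysosomal protease, had 329, 163 and 266 in SP cells, 6042, 3244 and 1994 in NSP cells and 7069 in the reference RNA. Laptm5 differed by -4.91 ± 0.87 and Cd68 by -0.96 ± 0.24. Ptprc was at the floor on 1 SP array. Of 15 mast cell and basophil genes 1 was named, Gata2, which endothelial and blood stem cells also express. It had 385, 518 and 493 in SP cells, 462, 458 and 282 in NSP cells and 302 in the reference RNA. Gata2 differed by 0.24 ± 0.27 in signal and by 1.06 on the dChip values. Pf4, the 1 named of 8 platelet genes and also made by macrophages, had 242, 174 and 192 in SP cells, 2644, 1508 and 756 in NSP cells and 3568 in the reference RNA.

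Endothelial markers went the other way: all 9 named of 14 had higher signals in SP cells, with a median of 1.84 and sums of 10040 to 10930 in SP cells, 3124 to 3361 in NSP cells and 434 in the reference RNA. Aplnr differed by 1.85 ± 0.19, Eng by 0.72 ± 0.26 and Plvap by 1.45 ± 0.22. Fibroblast markers (3 named of 6) also had higher signals in SP cells, Dcn by 1.01 ± 0.2, Col1a2 by 0.82 ± 0.26 and Pdgfra by 0.23 ± 0.27. So did pericyte markers (2 named of 5), Abcc9 by 0.85 ± 0.33 and Rgs5 by 0.45 ± 0.24. SP and NSP arrays overlapped for Pdgfra and Rgs5. None of 8 neuroendocrine genes was named.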

How the data were processed

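RNA of 3 SP, 3 NSP and 1 reference array was analysed, and the design names 4 replicates with 2 chips removed. The authors deposited 1 linear signal intensity per probe set and array, per the submitters' processing notes a MAS5 value whose version and scaling are not stated, and it was used as deposited. Per the file headers, the authors' comparison tables hold dChip values on a log scale, differences, present calls in percent, the score of a paired test and its unadjusted p-value. The base of the log is not stated. Over 971 bright listed probe sets the dChip values had a slope of 0.854 on log2 intensity. Natural logs would give 0.693 and log2 would give 1, so the slope does not settle the base. The highest value, 14.33, would as a natural log exceed any scanner intensity, so the deposited values were read as log2. The fold names of the authors' lists fit natural logs instead.

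Names came only from the list of 1632 probe sets, through a gene table of GRCm38.p6: 1483 had 1 symbol, 19 several and 130 none. Where a gene had more than 1 listed probe set, the brightest stood for it. A floor of 17, the 20th percentile over SP and NSP arrays together, replaced lower signals before log2, and 38115 of 45101 probe sets above it on at least 3 of 6 arrays, without the 64 control probe sets, were tested with limma 3.58.1 in R 4.3.3 (lmFit and eBayes, two-sided, Benjamini-Hochberg over all). The fit was tested on simulated data with the same spread for all probe sets and large changes. Spreads on these arrays differ between probe sets, so that test does not show how the fit performs on them. The number of arrays limits the precision.

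Named were Tph1, all pathway genes with a name, the 8 genes of highest and 4 of lowest r, 5 by deviations from group means, and up to 3 markers per list; Of these, 1 pathway gene and 1 of the 8 are counted but their values are not reported here. Ptprc and Lcp1 are named beside these, chosen after their values were seen. The gene, the lists and the tests were chosen with earlier results of these data known. The sort numbers pair the samples: the labels give 2 of 3 pairs a shared day and the authors' own test, per the file headers, is paired. Within pairs, deviations from group means had correlations of 0.039, 0.041 and 0.12, and all 6 samples correlated best with their own number. The comparison was kept without the pairs as a block, with the block as an alternative. Other alternatives covered scaling, floor, filter, variance model, threshold, measure of likeness and leaving out each array. The dChip tables used here have no column for the reference array, so that alternative was not run for it, and Tph1 has 1 probe set, so none could be averaged.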

Additional observations from a re-analysis of the deposited data

How the results depend on the processing

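Every alternative here was planned, and for those that moved a value the cause was not tested, unless given. The Tph1 difference of -2.30 was -2.05 when 16 was added to each signal instead of flooring and -1.33 on the dChip values. It was -2.29 after quantile normalization, -2.28 after centring, -2.30 with the floor at the 10th or 40th percentile, and -2.33 to -2.27 with 1 array left out. Against the reference RNA, SP cells (1.35) moved to 1.40 after centring, 0.199 with the floor at the 40th percentile, which lies above the reference signal, and 0.965 with the offset, with 1.34 to 1.37 when 1 array was left out. NSP cells (3.65) moved to 2.50 with that floor and 3.02 with the offset, with 3.62 to 3.68 when 1 array was left out.

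Against 6 probe sets past limma's threshold, 0 passed after quantile normalization (3459 at an unadjusted p under 0.05), with the offset (3408) and with the replicate block (3758). Leaving out 1 array also gave 0 to 0, with 2916 to 3457 unadjusted. Counts were 3 after centring, 24 and 25 with the floor at the 10th and 40th percentile, 32 with no filter, 15 above the floor on all 6 arrays, 381 under a variance trend, 942 when that trend joined the block, and 129 at an adjusted p under 0.10. Of the 9 pathway genes, 0 passed under each of these but the block with the trend, where 2 did. Of the 8 genes most like Tph1, 2 were among the 8 by Spearman's rho, 1 by r over the 6 sorted-cell arrays, 1 by deviations from the group means and 0 on the dChip values, so the choice of these names rests on the measure.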

Other observations

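Within the populations Tph1 varied so little (SD of 0.049 on the log2 scale) that its deviations from the group means span few units of signal. The 5 named genes of 1310 whose deviations over the 6 sorted-cell arrays were most like those of Tph1 were Adgrl4 (r of 0.991), Tsc22d3 (0.99), Zbtb18 (0.984), Stxbp2 (0.981) and Has1 (0.97). Their differences between SP and NSP cells ran both ways, with 3 lower in SP cells, as Tph1 was, and 2 higher. Adgrl4, an adhesion receptor of endothelial cells, had 699, 633 and 749 in SP cells and 233, 269 and 192 in NSP cells, a difference of 1.6 ± 0.21. Has1, a hyaluronan synthase, differed by 0.48 ± 0.18. Zbtb18, a zinc finger repressor, differed by -0.63 ± 0.17 and Stxbp2, a protein of granule release, by -1.05 ± 0.24, while Tsc22d3, induced by glucocorticoids, differed by -0.17 ± 0.20. All 5 came from the authors' list of differing probe sets. None of the 5 passed limma's adjusted p of 0.05 (0.0912 to 0.885, background 0.0157%), and 4 had an unadjusted p under 0.05 (background 8.72%). Adgrl4 and Zbtb18 passed with the variance trend (0.00163 and 0.0237) and with block and trend (0.00167 and 0.0048), where 1% and 2.47% of all probe sets did.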
